A study of Mus musculus with 72 samples.

Results

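The cell cycle and proliferation genes of a targeted expression table were taken by symbol: the A, B, D and E cyclins, the cyclin-dependent kinases and their inhibitors, genes whose symbols begin with Cdc, Mcm, Aurk, Bub, Plk, E2f, Chek or Rrm, and Wee1, Mki67, Top2a, Birc5, Foxm1, Hells, Ttk and Tyms. Cdkn1a and Cdk7 were left out by the rule. Of the 1224 genes analysed here, 16 matched, and all 16 passed the filter on low counts that left 1038 genes for testing. They were the replication genes Hells, Cdc6 and Cdc7, the genes of mitosis and growth Cdc25c, Cdc25a, Cdc14a, Mki67 and Birc5, the checkpoint kinases Chek1 and Chek2, the inhibitor Cdkn1b and the factor E2f4, and 4 genes that share a symbol stem with the family and have other main roles. Those 4 were Cdc5l, a splicing factor, Cdk5r1, an activator of Cdk5 best known in neurons, Cdkn2aip, a regulator of p53 signalling, and Mcm3ap, a factor of messenger RNA export. No A, B, D or E cyclin and no Aurora or Polo-like kinase was among the genes analysed here.

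RNA came from 36 tumours of female BALB/c mice aged 6 to 12 weeks, 1 tumour per mouse and 9 mice in each of 4 groups. All mice received cells of 4T1, a single mouse mammary carcinoma line, into the thigh on day -6, were treated on day 0 and were killed on day 6. The control group received 400 µg of isotype antibody, the BA group 492 µg of bintrafusp alfa (M7824 in the labels), the RT group radiation plus isotype antibody, and the BA+RT group both treatments. BA joins an antibody against PD-L1 to a part of a TGF-β receptor that traps TGF-β. No source used here gives the dose of radiation. The tissue is labelled orthotopic, although the design places the cells in the thigh. The tumours were read in bulk, so fewer dividing cells and less RNA per dividing cell cannot be told apart.

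Cells copy their DNA in S phase and divide in mitosis, and checkpoint kinases hold either step back when DNA is damaged. Many genes of both steps are transcribed mainly in cycling cells, under E2F factors before S phase and, before mitosis, through CHR promoter elements that often stand beside CCAAT boxes, so their RNA is widely read as a sign of proliferation. Radiation breaks DNA and halts the cycle through Chek1, Chek2 and p53, whereas TGF-β restrains the division of epithelial cells and drives fibroblasts.

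Each tumour gave 2 libraries, 1 per amplicon panel, with totals of 959532 to 2616197 counts on panel 1 and 314621 to 841046 on panel 2. Median totals were higher in the irradiated groups, at 1902836 and 1898032 counts on panel 1 against 1567411 in control and 1362126 in BA. No 2 mice of a group had alike counts, the lowest chi-square per degree of freedom over 288 pairs being 6.32. Levels are CPM, a gene's counts scaled to its own library's total on that panel with TMM factors. They are compared between mice and not between genes, since amplicons differ in yield. Differences are log2 fold changes from edgeR's quasi-likelihood test with a standard error (SE), and a gene was called at a Benjamini-Hochberg adjusted p below 0.05 over the 1038 genes. The choice of scale mattered in irradiated tumours. With the 9 reference genes of each panel as the scale, the median difference over all genes went from -0.01 to 0.19 on the log2 scale in RT against control, from 0.01 to 0.14 in BA+RT against control and from 0.02 to 0.20 in BA+RT against BA. In BA against control that median went from 0.00 to -0.05.

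With BA alone, 4 genes of DNA replication, mitosis and growth were lower. Of the 16 genes, 4 fell and 0 rose in BA against control, namely Hells, Cdc25c, Mki67 and Birc5, against 27% of all genes called in either direction and 14.5% called lower. As a share of the set, the calls were close to that background. Their falls ran from 1.22-fold to 1.43-fold, and the median log2 fold change over the 16 was -0.07 against 0.00 over all genes. On the reference scale 3 fell and 0 rose, against 27.2% of all genes called, 9.54% higher and 17.6% lower, Birc5 being the gene lost.

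The reads of the replication and growth genes with the fullest data came from short coding stretches. Hells (ENSMUSG00000025001) was read at chr19:38950263-38950357 on the plus strand and Mki67 (ENSMUSG00000031004) at chr7:135698793-135698887 on the minus strand, both in coding exons on GRCm38. The bases below are those that every count of the pair stands for, taken from the GENCODE transcripts, 5′ to 3′.
Hells: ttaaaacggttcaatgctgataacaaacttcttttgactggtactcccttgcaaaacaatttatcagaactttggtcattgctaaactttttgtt
Mki67: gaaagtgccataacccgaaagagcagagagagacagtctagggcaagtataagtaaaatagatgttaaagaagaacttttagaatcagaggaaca

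Hells, also called Lsh, is a chromatin remodeller of the SNF2 family that is needed for DNA methylation and is made in dividing cells. In the control tumours its level ran from 1451 to 2411 CPM with a median of 1851, and in the BA tumours from 1074 to 1670 with a median of 1384. The ranges overlapped, with the BA median below the lowest control tumour. The log2 fold change was -0.52 (SE 0.09, adjusted p = 9.92e-05), a 1.43-fold fall, and it held without any 1 of the 18 mice (highest adjusted p = 3.66e-04).

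Cdc25c (ENSMUSG00000044201) encodes the phosphatase that activates Cdk1 at entry into mitosis. It ran from 395 to 628 CPM (median 539) in control tumours and from 339 to 459 (median 405) in BA tumours. The ranges overlapped, with the BA tumours at the low end of the control range or below it. The log2 fold change was -0.36 (SE 0.08, adjusted p = 8.44e-04). Cdc25c was the only gene of the 16 on both panels, and its other amplicon, in separate libraries, gave -0.51 (SE 0.10). Levels from the pair of amplicons followed each other over the 36 mice once group means were removed (Pearson r = 0.743).

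Mki67 encodes Ki-67, the standard marker of proliferating cells. Control tumours held 1532 to 2381 CPM (median 1922) and BA tumours 1171 to 2018 (median 1526). Groups overlapped, with the BA median just below the lowest control mouse. The fall was 0.35 on the log2 scale (log2 fold change -0.35, SE 0.08, adjusted p = 1.35e-03).

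Birc5 (ENSMUSG00000017716), whose protein survivin serves chromosome segregation and blocks cell death, was read in its 3′ UTR at chr11:117855589-117855683. It ran from 2882 to 5136 CPM (median 3725) in control and from 2218 to 3930 (median 3058) in BA, with wide overlap. Its log2 fold change was -0.29 (SE 0.11, adjusted p = 0.0409). This was the weakest of the 4 calls: adjusted p was 0.056 with reference gene scaling or with total counts alone and 0.0969 with only the 2 groups in the fit. The call was also lost without any 1 of control mice 3, 5, 6 and 9 or BA mice 10, 11, 13, 14 and 17, with adjusted p up to 0.109.

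**Figure D1:**
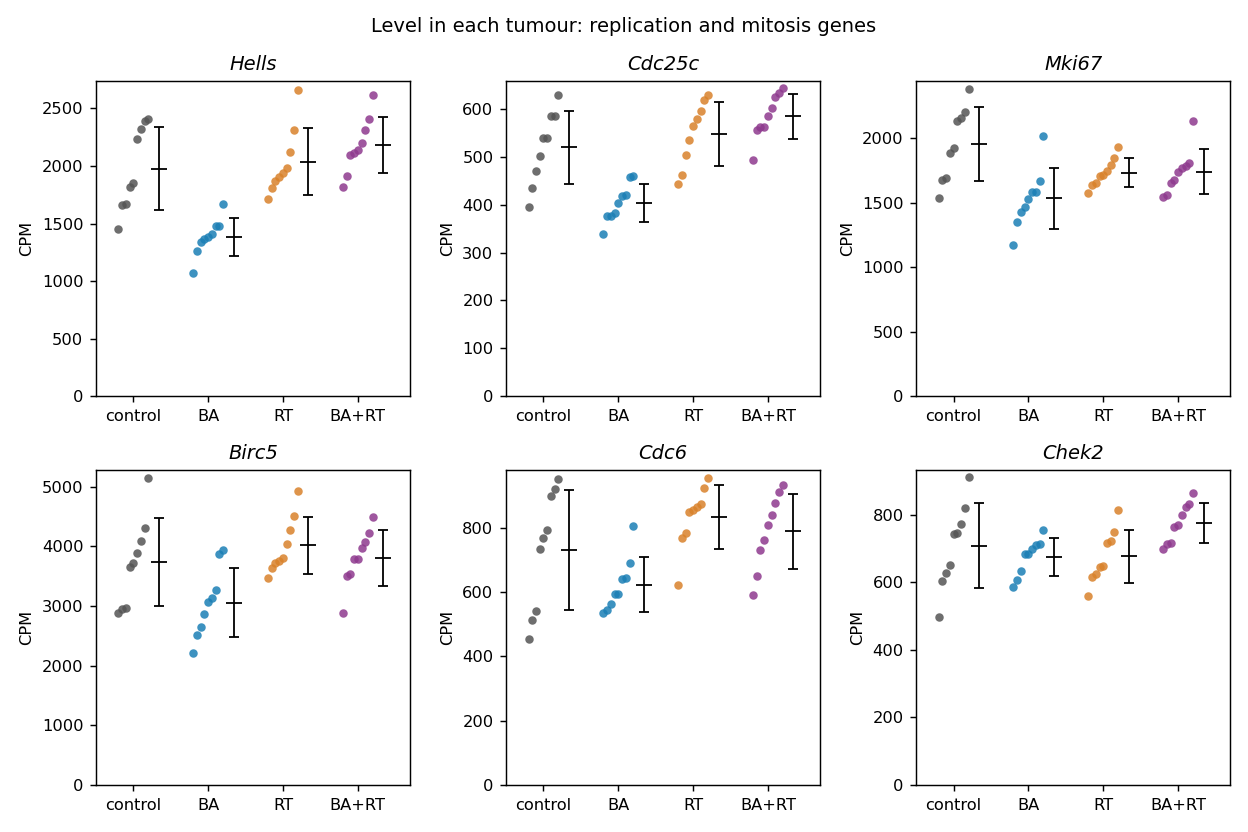
Level of 6 genes of replication, mitosis and the checkpoint in each tumour (CPM on a linear axis from 0, 9 mice per group, points sorted by value within a group, bars mean ± SD). In Hells and Cdc25c every BA tumour lies below every BA+RT tumour, whereas BA overlaps control in all 6 genes.

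The other 12 genes did not pass the test in BA against control. Cdc6, which loads the replicative helicase onto origins, had the largest difference among them (log2 fold change -0.22, SE 0.12, adjusted p = 0.166). Its control tumours varied most of the 16 genes, from 454 to 953 CPM, a coefficient of variation of 25.6%. The kinase gene Cdc7, which fires origins, had a difference of -0.07 and both checkpoint kinase genes had -0.07, each with a 95% interval that spanned 0. The largest value in the other direction was Cdkn2aip, at 0.19 (SE 0.09, adjusted p = 0.132).

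Markers of other cell types moved in the same comparison. T and NK cell markers summed to 110 to 411 CPM in control and 222 to 673 CPM in BA, and 6 of 13 rose and 0 fell. Fibroblast markers summed to 58637 to 108508 CPM in control and 42056 to 60953 CPM in BA, and 5 of 7 fell and 0 rose. Of the 3 epithelial markers measured, Epcam, Erbb2 and Muc1, 2 fell in BA, and their sum was 9626 to 14864 CPM in control against 8088 to 10999 CPM in BA. Neutrophil markers summed to 7171 to 13716 CPM in control and 3199 to 8130 CPM in BA, and 2 of 7 rose and 1 fell. Myeloid markers summed to 4914 to 6155 CPM in control and 5819 to 6983 CPM in BA, and 4 of 9 rose and 1 fell. Over the 7 marker lists no gene was at 0 in all mice of a group. The part of these shifts in the fall of the proliferation genes was not tested.

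Under radiation the same drug gave no call. In BA+RT against RT, 0 of the 16 genes passed edgeR's test, against 10.8% of all genes, 3.66% higher and 7.13% lower, and 1, Chek2, had an unadjusted p below 0.05. DESeq2 and limma on the deposited rlog values also called 0. Reference gene scaling called 1, Cdc25a, which fell (log2 fold change -0.21, SE 0.07, adjusted p = 0.0333), against 11.1% of all genes, 1.83% higher and 9.25% lower. Hells ran from 1715 to 2659 CPM (median 1939) in RT and from 1821 to 2619 (median 2140) in BA+RT, nearly the same span. Its difference was 0.10 with a 95% interval of -0.09 to 0.29. For Cdc25c the difference was 0.09 (interval -0.07 to 0.25), with RT tumours at 444 to 630 CPM and BA+RT tumours at 494 to 643. Mki67 differed by 0.01 (interval -0.16 to 0.17), with RT tumours at 1573 to 1930 CPM and BA+RT tumours at 1543 to 2134. These intervals leave out falls of the size seen for the 3 genes without radiation.

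The difference between the drug's effect with and without radiation was tested as an interaction, (BA+RT minus RT) minus (BA minus control). It was called for 3 of the 16 genes, all positive, against 8.29% of all genes, 3.37% positive and 4.91% negative. The median over the 16 was 0.15 against 0.02 over all genes. Hells had the largest value, 0.61 (SE 0.13, adjusted p = 0.00328), and stayed called without any 1 of the 36 mice and under each alternative scale, filter and tool. Cdc25c followed at 0.45 (SE 0.11, adjusted p = 0.00831), and 0.53 (SE 0.14) on its other amplicon. Without any 1 mouse it also stayed called, whereas reference gene scaling left it at 0.44 with adjusted p = 0.059.

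For Mki67 the interaction was 0.36 (SE 0.11, adjusted p = 0.0459), close to the threshold. It was lost without any 1 of 22 of the 36 mice, with adjusted p up to 0.0765, and was kept only without control mouse 1, 2, 4 or 8, BA mouse 15 or 18, RT mouse 19, 24 or 27, or BA+RT mouse 37, 40, 42, 44 or 45. Reference gene scaling gave 0.34 (adjusted p = 0.146) and total counts alone 0.35 (adjusted p = 0.109). On the reference scale Hells was the 1 gene of the 16 called, against 5.88% of all genes, 2.12% positive and 3.76% negative. With TMM scaling, the next gene below the threshold was Chek2, at 0.27 (SE 0.12, adjusted p = 0.155). Birc5, which had fallen with BA alone, had an interaction of 0.21 (SE 0.15, adjusted p = 0.414), so a difference in its response was not shown. Among the markers, the interaction was called for 5 of 9 myeloid and 2 of 7 neutrophil genes, all negative, and for 0 of 13 T and NK cell, 7 fibroblast and 3 epithelial genes. In the table as a whole 3.37% of genes had a positive and 4.91% a negative call. The part of the markers in the values of the 16 genes was not tested.

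**Figure D2:**
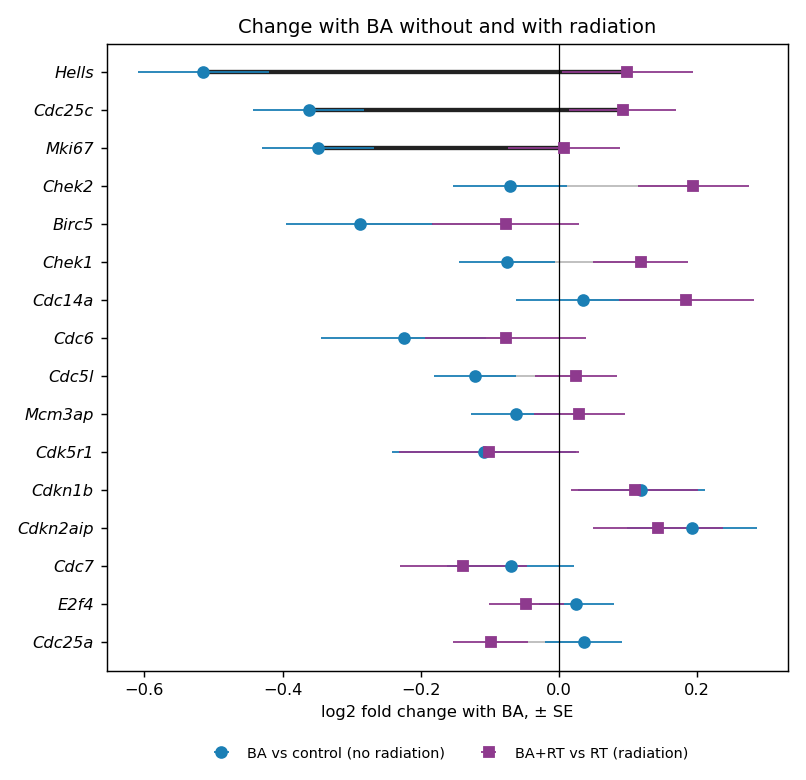
Log2 fold change with BA for each of the 16 genes, without radiation (circles, BA against control) and with it (squares, BA+RT against RT), bars ± SE, sorted by interaction. The dark lines for Hells, Cdc25c and Mki67 mark the called interactions, of 0.61, 0.45 and 0.36.

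Set against BA alone, the combination showed the largest differences among these genes. In BA+RT against BA, 6 rose and 1 fell, against 53.5% of all genes called, 27.1% higher and 26.4% lower, so the share of genes called was no greater than in the table as a whole. The genes that rose were the replication genes Hells and Cdc6, the mitotic genes Cdc25c and Birc5 and the kinase genes Chek1 and Chek2, and Cdkn1b fell. The reference scale gave 11 rises and 0 falls, against 59.6% of all genes called, 45.5% higher and 14.2% lower. The added genes were Mki67, Cdc25a, E2f4, Cdc5l and Mcm3ap.

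Hells rose by 0.66 (SE 0.09, adjusted p = 8.61e-07), a 1.57-fold difference, and its lowest BA+RT tumour, at 1821 CPM, stood above its highest BA tumour, at 1670. Cdc25c rose by 0.53 (SE 0.08, adjusted p = 1.36e-06), with every BA+RT tumour, from 494 CPM, above every BA tumour, up to 459. These were the 2 genes of the 16 whose groups did not overlap, in a comparison where 11.7% of all genes did so. In the other 4 pairwise comparisons 0 of the 16 genes were without overlap, against 7.61% of all genes in RT against control, 2.79% in BA against control, 7.23% in BA+RT against control and 0.771% in BA+RT against RT.

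Cdc6 (ENSMUSG00000017499, chr11:98908671-98908760) ran from 534 to 806 CPM (median 594) in BA and from 591 to 932 (median 807) in BA+RT. The ranges overlapped over most of the BA span. It rose by 0.34 (SE 0.12, adjusted p = 0.0166). Birc5, at 2886 to 4482 CPM in BA+RT (median 3793), rose by 0.32 (SE 0.11, adjusted p = 0.0126).

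Chek1, the kinase that ATR activates at stalled forks, rose by 0.21 (SE 0.07, adjusted p = 0.0112) and Chek2, the kinase that ATM activates at breaks, by 0.20 (SE 0.08, adjusted p = 0.0366). The Chek2 call was lost without any 1 of BA mice 10, 11, 12 and 14 or BA+RT mice 38, 41, 42 and 44, with adjusted p up to 0.103. Mki67 had a difference of 0.18 (SE 0.08, adjusted p = 0.0554) that missed the threshold. It passed with DESeq2 (0.19, adjusted p = 0.0462), with limma on rlog values (0.13, adjusted p = 0.0356), with reference gene scaling (0.38, adjusted p = 1.25e-03), and without BA mouse 15, BA mouse 18 or BA+RT mouse 40, with adjusted p down to 0.00836. T and NK cell markers fell in 10 of 13 cases in this comparison, from 222 to 673 CPM in BA to 134 to 425 in BA+RT. Of 9 myeloid genes 3 rose and 4 fell (5819 to 6983 CPM in BA, 5375 to 6981 in BA+RT), and of 7 neutrophil genes 1 rose and 3 fell (3199 to 8130 CPM, then 3230 to 5543). Of 7 fibroblast genes 1 rose and 1 fell, 1 of 2 endothelial genes fell, and the 1 B cell gene tested fell. Among the epithelial markers Muc1, a surface mucin, rose by 2.86 on the log2 scale (SE 0.23, adjusted p = 7.06e-12), Epcam, an epithelial adhesion molecule, fell by 0.45 (SE 0.11, adjusted p = 7.23e-04), and Erbb2 was not called. In the table as a whole 27.1% of genes were called higher and 26.4% lower in BA+RT against BA. The part of these lists in the result was not tested.

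**Figure D3:**
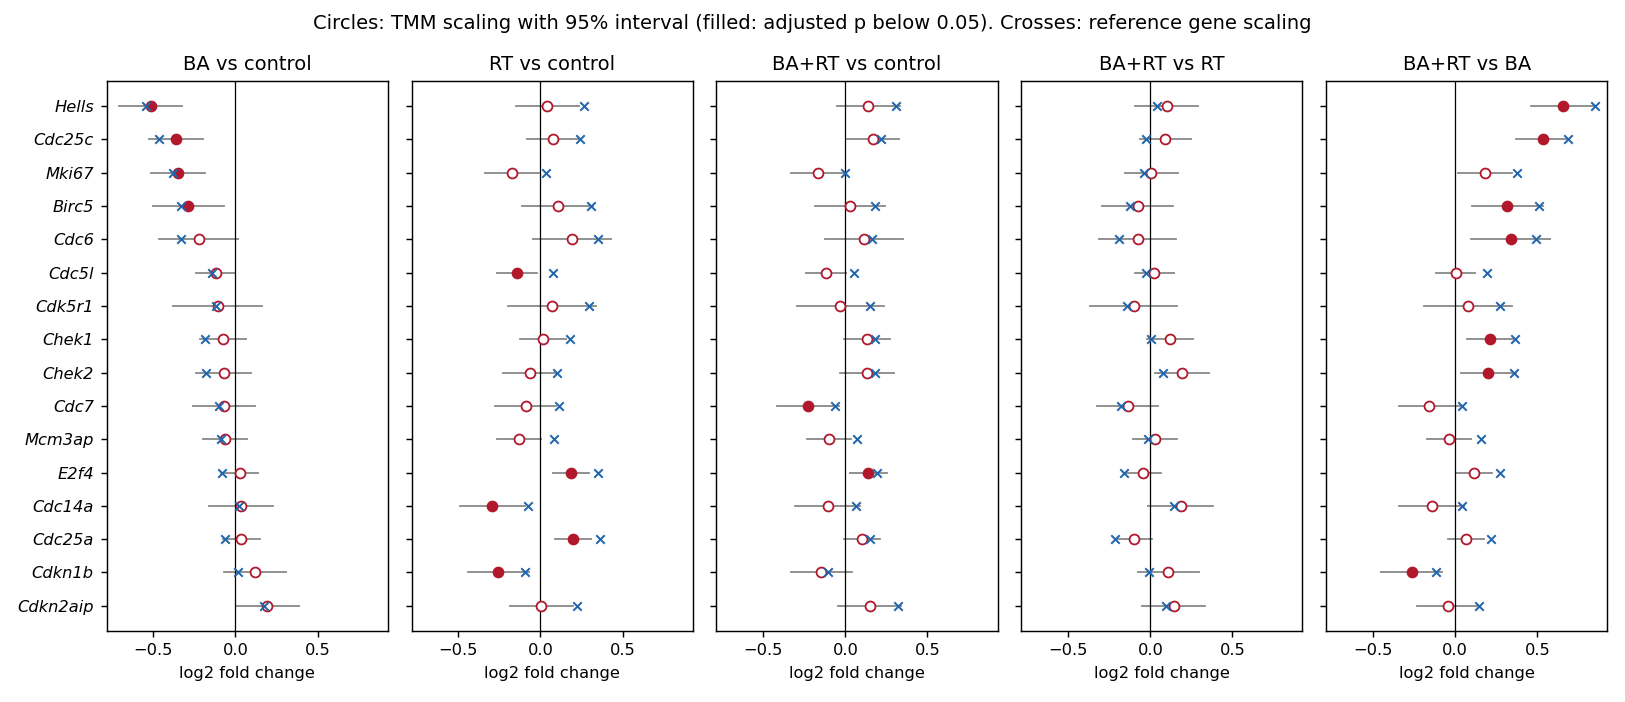
Log2 fold change of the 16 genes in the 5 pairwise comparisons with TMM scaling (circles with 95% interval, filled where the adjusted p is below 0.05) and with reference gene scaling (crosses). Crosses lie to the right of the circles wherever an irradiated group is set against an unirradiated one, and 11 rather than 6 genes were called higher in BA+RT against BA.

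With radiation alone and TMM scaling, none of the 4 genes lowered by BA was called, and other genes of the set changed. In RT against control 2 rose and 3 fell, against 41.6% of all genes called, 20.5% higher and 21.1% lower. Cdc25a and E2f4 rose, and Cdc14a, Cdkn1b and Cdc5l fell. The share called was below that of the table as a whole. On the reference scale the split was 7 higher and 0 lower, against 48.3% of all genes called, 40.7% higher and 7.61% lower. The 7 were Cdc25a, E2f4, Cdc6, Hells, Cdc25c, Cdk5r1 and Cdkn2aip. The 2 rises were thus called on both scales, and the 3 falls on 1.

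Cdc25a (ENSMUSG00000032477, chr9:109883488-109883579) encodes the phosphatase that activates Cdk2 and Cdk1 and whose protein is destroyed when Chek1 is active. It ran from 729 to 974 CPM (median 877) in control and from 930 to 1102 (median 972) in RT. Only the top of the control range overlapped RT. It rose by 0.20 (SE 0.05, adjusted p = 0.00323).

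E2f4 (ENSMUSG00000014859), a mainly repressive E2F factor of resting cells, was read in its 3′ UTR at chr8:105305148-105305242. Control tumours lay close together, from 5062 to 5715 CPM (median 5417), and RT tumours ran from 5334 to 7246 (median 6310). The lower RT tumours lay inside the control range and the RT median above it. It rose by 0.19 (SE 0.05, adjusted p = 0.00533).

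Cdkn1b (ENSMUSG00000003031, chr6:134921022-134921117) encodes p27, an inhibitor of Cdk2 that holds cells in G1. It ran from 3640 to 6073 CPM (median 5579) in control and from 3732 to 5166 (median 4293) in RT, the RT range lying inside that of control. It fell by 0.26 (log2 fold change -0.26, SE 0.09, adjusted p = 0.0232), and the reference scale gave -0.09 (adjusted p = 0.271). Against BA, where it ran from 5162 to 6754 CPM (median 5568), BA+RT tumours at 3609 to 6454 (median 4536) were lower by -0.27 (SE 0.09, adjusted p = 0.0153), and by -0.12 on the reference scale (adjusted p = 0.134).

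Cdc14a (ENSMUSG00000033502, chr3:116308178-116308276), a phosphatase that reverses Cdk phosphorylation, ran from 372 to 724 CPM (median 567) in control and from 407 to 601 (median 478) in RT. The groups overlapped throughout the RT range. It fell by 0.29 (log2 fold change -0.29, SE 0.10, adjusted p = 0.0144), and the reference scale gave -0.08 (adjusted p = 0.397). Cdc5l fell by 0.14 (log2 fold change -0.14, SE 0.06, adjusted p = 0.0495), while the reference scale turned the value to 0.08 (adjusted p = 0.259). That call was also lost without any 1 of control mice 2, 5, 7 and 9 or RT mice 20, 22 and 23, with adjusted p up to 0.098.

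Mki67 in RT had a difference of -0.17 from control (SE 0.08, adjusted p = 0.0833). It was called without any 1 of control mice 1, 4 and 8 or RT mice 19 and 27, with adjusted p down to 0.0146. The reference scale gave 0.04 (adjusted p = 0.776). Hells differed by 0.04 (SE 0.09, adjusted p = 0.754) and by 0.26 on the reference scale, where it passed (adjusted p = 0.0481). Epithelial markers summed to 5798 to 9759 CPM in RT against 9626 to 14864 CPM in control, and neutrophil markers to 5491 to 14007 CPM against 7171 to 13716 CPM. Of the first list 1 rose and 2 fell, and of 7 neutrophil genes 1 rose and 0 fell. Myeloid markers summed to 5294 to 7254 CPM in RT against 4914 to 6155 CPM in control, and 5 of 9 rose and 1 fell. Of 13 T and NK cell genes 0 rose and 3 fell (117 to 335 CPM against 110 to 411), of 7 fibroblast genes 0 rose and 2 fell (38548 to 89881 CPM against 58637 to 108508), and of 2 endothelial genes 1 rose. In the table as a whole 20.5% of genes were called higher and 21.1% lower in RT against control. The part of these lists in the results was not tested.

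**Figure D4:**
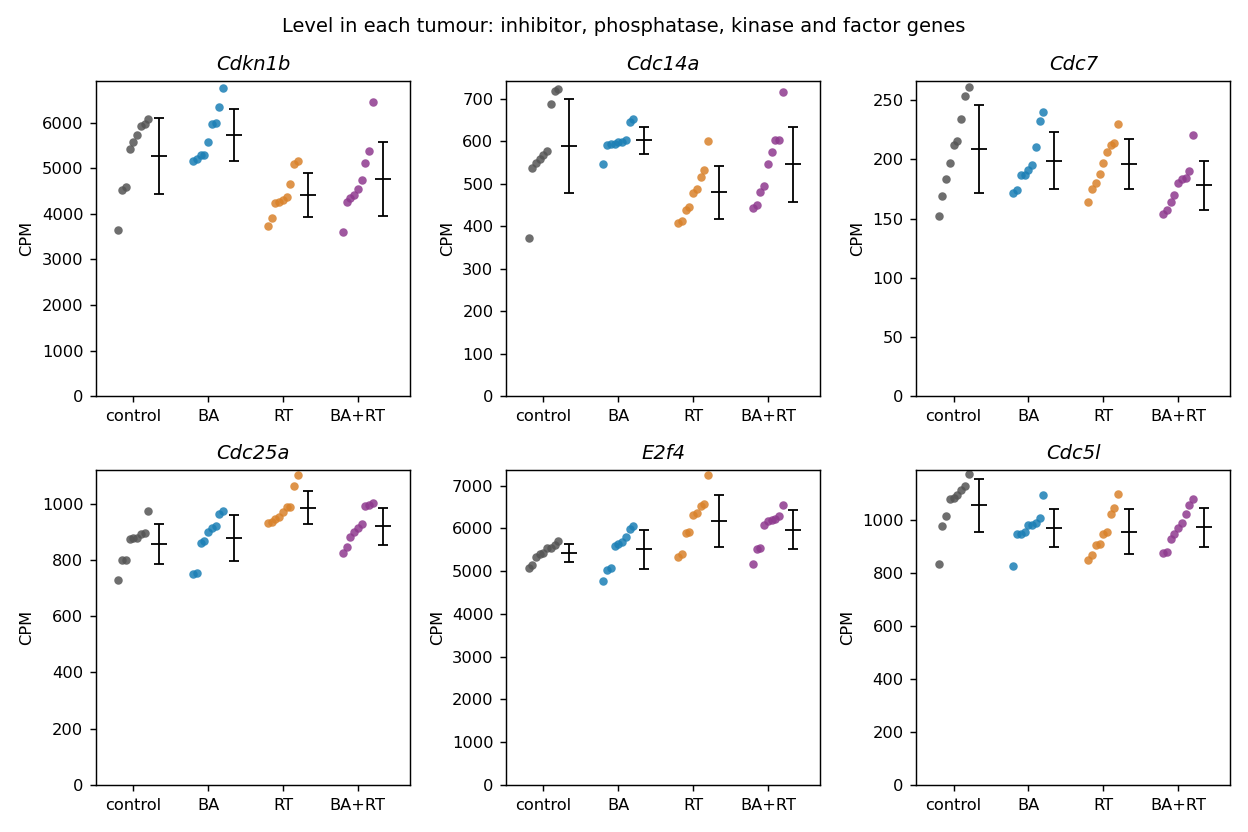
Level of the inhibitor gene Cdkn1b, the phosphatase genes Cdc14a and Cdc25a, the kinase gene Cdc7, E2f4 and Cdc5l in each tumour (CPM on a linear axis from 0, 9 mice per group, points sorted by value, bars mean ± SD). The RT median is the highest of the groups in Cdc25a and E2f4 and the lowest in Cdkn1b and Cdc14a, with overlap between groups in all 6 genes.

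Few genes of this set were called between the combination and control. The median absolute log2 fold change over the 16 was 0.13, against 0.11 in BA against control and 0.12 in RT against control. Over all genes these medians were larger, at 0.24, 0.16 and 0.22 in that order. In BA+RT against control 1 rose and 1 fell, against 47.6% of all genes called, 23.4% higher and 24.2% lower. On the reference scale 3 rose, Hells, E2f4 and Cdkn2aip, and 0 fell, against 52.4% of all genes called, 37.3% higher and 15.1% lower. Cdc7 (ENSMUSG00000029283, chr5:106973811-106973904) ran from 152 to 261 CPM (median 212) in control and from 154 to 221 (median 180) in BA+RT, with overlap. It fell by 0.23 (log2 fold change -0.23, SE 0.09, adjusted p = 0.0393), and gave -0.07 (adjusted p = 0.619) on the reference scale. E2f4, at 5178 to 6542 CPM in BA+RT (median 6182), rose by 0.14 (SE 0.05, adjusted p = 0.0321).

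Neither call in that comparison was firm. Without control mouse 5 the count was 0, and it was 1 without any 1 of control mice 2, 7 and 9 or BA+RT mice 38, 39, 40, 42 and 43. It was 4 without control mouse 8, and 5 without control mouse 3 or BA+RT mouse 37. The Cdc7 call was lost without any 1 of control mice 2, 3, 5, 6 and 7 or BA+RT mice 38, 39 and 40 (adjusted p up to 0.0893), and the E2f4 call without any 1 of control mice 1, 4, 5, 6 and 9 or BA+RT mice 41, 42 and 43 (adjusted p up to 0.0798). Hells stood at 0.14 (SE 0.09, adjusted p = 0.223) and Mki67 at -0.17 (SE 0.08, adjusted p = 0.0874). Mki67 was called without any 1 of control mice 1, 4 and 8 or BA+RT mouse 41, with adjusted p down to 0.0177.

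With TMM scaling, the order of the group medians differed between the genes of the set. For Hells it was BA, control, RT and BA+RT from low to high, and only BA stood apart from its neighbour by the test. Cdc25c had the same order. For Mki67 it was BA, RT, BA+RT and control, and neither BA+RT from RT nor control from BA+RT differed by the test, while RT was not set against BA. On the reference scale the order for Mki67 was BA, control, BA+RT and RT (medians 10.45, 10.78, 10.87 and 10.94 log2 CPM). Cdc25c had that order too. There edgeR also called RT higher than control for Hells (adjusted p = 0.0481) and Cdc25c (adjusted p = 0.0429). All 5 comparisons share groups with one another, so their values are given side by side and not as repeats of a result.

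Among the genes that share only a symbol stem with the family, Cdk5r1 had the fewest counts, 26 to 128 per library, and ran from 24.2 to 56.8 CPM over the 4 groups. Its 95% interval in RT against control reached from -0.20 to 0.34 with TMM scaling, and the reference scale gave 0.29 (adjusted p = 0.0481). Cdkn2aip ran from 162 to 299 CPM and Mcm3ap from 223 to 350, and neither was called in any of the 5 comparisons with TMM scaling. Over the 16 genes, the coefficient of variation between control mice ran from 3.95% for E2f4 to 25.6% for Cdc6, with a median of 15.2% against 17% for all genes tested.

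Between tumours of the same group, 8 of these genes were higher where Mki67 was higher, and 1 was lower. Levels (log2 CPM) were correlated with Mki67 over the 36 mice after each group's mean was removed, with 100000 two-sided permutations within groups, for 15 genes and, as a background, for all 1037 other genes tested. With Benjamini-Hochberg adjustment over the 1037, 9 of the 15 had an adjusted p below 0.05, against 14.3% of all genes, 8.87% positive and 5.4% negative. The median r was 0.42 over the 15 and -0.03 over all genes. Cdc25c had the highest correlation of the 15 (Pearson r = 0.749, permutation p = 1e-05, adjusted p = 0.00148; Spearman rho = 0.802, permutation p = 1e-05), on a panel sequenced as a separate library from Mki67. Cdc7, uncalled with BA alone, had r = 0.736 (permutation p = 1e-05, adjusted p = 0.00148) and rho = 0.693 (permutation p = 3e-05). Hells followed with r = 0.715 (permutation p = 3e-05, adjusted p = 0.00222) and rho = 0.642 (permutation p = 1.8e-04). The smallest p that these permutations can give before adjustment is 1e-05.

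Birc5 had r = 0.654, Chek1 0.638, Chek2 and Cdc6 0.632 each and E2f4 0.418, with rho of 0.715, 0.600, 0.700, 0.688 and 0.501 and a permutation adjusted p of at most 0.0473 for r. Cdkn1b was the negative case, with r = -0.54 (permutation p = 9.4e-04, adjusted p = 0.0164) and rho = -0.65 (permutation p = 8e-05). Of the other genes of mitosis, Cdc25a had r = 0.311 (permutation adjusted p = 0.253) and rho = 0.365, and Cdc14a r = -0.188 (permutation adjusted p = 0.491) and rho = -0.236. Without BA mice 18 and 11, the 2 farthest from the median of Mki67, r was 0.73 for Cdc25c, 0.655 for Hells and -0.538 for Cdkn1b. On the reference scale 11 of the 15 passed, Cdc25a and Mcm3ap being added, against 38.4% of all genes, 32.0% positive and 6.36% negative. Genes of a panel share a library, its depth and its scaling factor.

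With TMM scaling, the relation was weaker among RT tumours for several genes. For Hells r was 0.83 in control, 0.84 in BA, 0.166 in RT and 0.84 in BA+RT, over 9 mice each. For Chek1 it was 0.75, 0.74, 0.23 and 0.74. Mki67 itself varied least in RT on that scale, with a coefficient of variation of 6.41% against 14.6% in control. On the reference scale RT mice 21 and 22 had the lowest Mki67 of the group, at 10.62 and 10.61 log2 CPM. They also had the lowest Hells, at 10.68 and 10.70, and the lowest Chek1, at 11.36 and 11.39. The weaker relation in RT is thus given for TMM scaling only, and r by group was not computed on the reference scale. The difference between groups in these correlations was not tested.

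**Figure D5:**
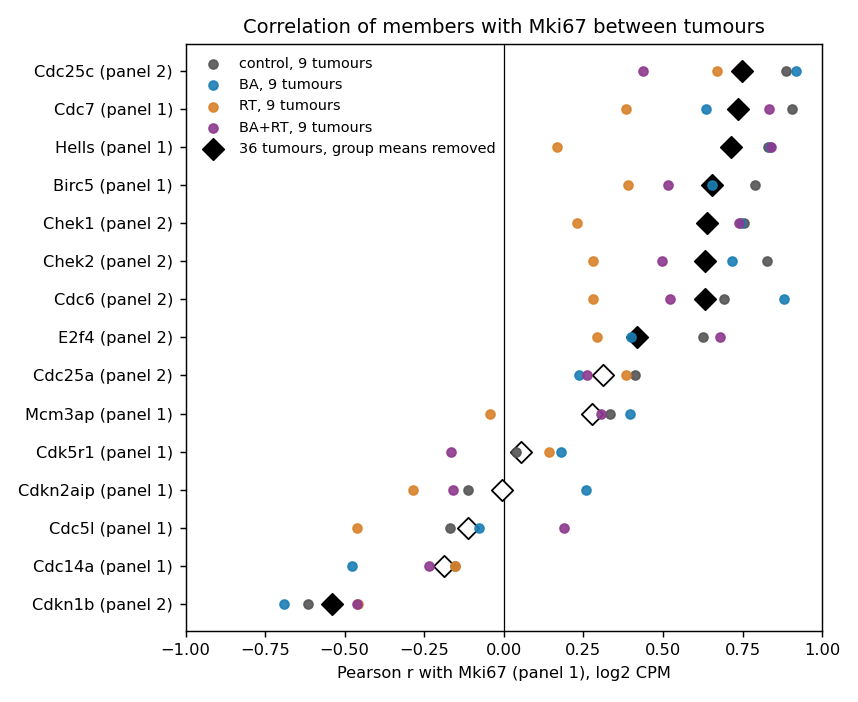
Pearson r of each of 15 genes with Mki67 (log2 CPM, TMM scaling), within each group of 9 mice (coloured points) and over 36 mice with group means removed (diamonds, filled where the permutation p adjusted over the 15 genes is below 0.05). Diamonds run from 0.749 for Cdc25c to -0.54 for Cdkn1b, and the RT point of Hells lies at 0.166.

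Promoter letters of the elements named above were counted in the RefSeq promoter table of GRCm38.p6, which covers 250 bases before to 50 after each start. It held 16 windows for 13 of the 16 genes, with no entry for Cdc25c, Cdk5r1 and E2f4. E2F letters (TTCCCGC, its variant TTGCCGC, its variant TTCGCGC or its variant TTGGCGC, on either strand) were present for 7 of 13 genes, in 8 of 16 windows, against 9.57% of 32851 windows of the table. The 7 were Hells, Mki67, Cdc6, Cdc7, Cdc25a, Chek1 and Chek2. CHR letters (TTTGAA or TTCGAA) were present for 3 of 13 genes, in 5 of 16 windows, against 19.2%, and CCAAT for 6 of 13, in 6 of 16 windows, against 37.4%. TTGGCGC and the reverse of CCAAT can share the letters TTGG. Mki67 was the 1 gene with all 3, found in 0.499% of all windows. A match is a run of letters and not a measured binding site.

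The 150 bases before the start are shown for the pair of genes with the largest falls under BA that have an entry, Hells and Mki67, for Cdc25a, which rose under radiation, and for Cdkn1b, which ran against Mki67. Each is 5′ to 3′ on the gene's strand with the matched letters in capitals. The windows are chr19:38930840-38930989 (plus strand) for Hells, chr7:135716380-135716529 (minus) for Mki67, chr9:109875429-109875578 (plus) for Cdc25a and chr6:134920251-134920400 (plus) for Cdkn1b.
Hells: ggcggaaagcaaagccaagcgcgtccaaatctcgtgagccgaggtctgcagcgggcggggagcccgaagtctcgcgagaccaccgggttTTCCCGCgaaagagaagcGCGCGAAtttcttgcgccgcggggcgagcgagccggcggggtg
Mki67: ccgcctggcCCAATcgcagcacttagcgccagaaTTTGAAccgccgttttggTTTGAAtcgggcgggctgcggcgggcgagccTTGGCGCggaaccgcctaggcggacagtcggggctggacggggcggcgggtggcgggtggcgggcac
Cdc25a: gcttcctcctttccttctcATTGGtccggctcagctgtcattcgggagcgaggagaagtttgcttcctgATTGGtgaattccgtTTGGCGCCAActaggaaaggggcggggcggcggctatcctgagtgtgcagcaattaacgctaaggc
Cdkn1b: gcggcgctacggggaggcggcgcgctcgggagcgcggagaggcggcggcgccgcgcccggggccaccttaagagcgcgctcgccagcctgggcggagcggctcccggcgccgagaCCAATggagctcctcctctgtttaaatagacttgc
Hells held a pair of E2F matches, at positions -61 and -43 from the start, and neither of the other elements. Mki67 held an E2F match at -67 with CHR letters at -116 and -98. In Cdc25a the E2F letters on both strands overlap each other. Cdkn1b held CCAAT alone.

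Genes of the pathway outside the set moved in part alongside it. Of 23 DNA replication and S phase repair genes tested, 12 fell and 0 rose with BA alone, against 14.5% of all genes called lower. The list's median log2 fold change was -0.18 against 0.00 over all genes. They included the replicative ligase gene Lig1 (log2 fold change -0.38, SE 0.07, adjusted p = 9.73e-05), Fanca of the crosslink repair complex (-0.49, SE 0.16, adjusted p = 0.024) and Brca2 (-0.37, SE 0.06, adjusted p = 2.06e-05). The reference scale gave 14 falls and 0 rises, against 17.6% of all genes called lower and 9.54% higher.

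In the other comparisons that list split. In BA+RT against RT 0 of 23 were called, in BA+RT against BA 12 rose and 4 fell, and in RT against control 8 rose and 8 fell, which became 12 and 2 with reference gene scaling. Over all genes 3.66% were called higher and 7.13% lower in BA+RT against RT. The shares were 27.1% and 26.4% in BA+RT against BA, and 20.5% and 21.1% in RT against control. Reference gene scaling made those in RT against control 40.7% and 7.61%. Pcna, the sliding clamp of the replication fork and a p53 target, fell by 0.28 in RT (log2 fold change -0.28, SE 0.06, adjusted p = 7.11e-04). BA+RT against control gave 5 rises and 8 falls, against 23.4% of all genes called higher and 24.2% lower. The interaction was called and positive for 3, Lig1 at 0.43, Brca2 at 0.40 and the mismatch repair gene Msh6 at 0.25. Over all genes 3.37% had a positive call. The 3 differed in the other comparisons. In RT against control Brca2 (log2 fold change -0.39) and Msh6 (-0.21) were also called lower, whereas Lig1 (-0.04) was not called. In BA+RT against BA Lig1 rose by 0.39, as Hells had risen, while Brca2 (0.01) and Msh6 (0.04) were not called.

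Of 14 other cell cycle control genes, Pttg1, like Hells, fell with BA alone and had a positive interaction. It encodes securin, which blocks the separation of sister chromatids until anaphase. Its log2 fold change was -0.53 in BA against control (SE 0.07, adjusted p = 2.17e-06), 0.30 in RT against control, 0.85 in BA+RT against BA (adjusted p = 3.7e-11) and 0.55 for the interaction (adjusted p = 0.00128). In RT against control Hells was at 0.04. It was named here after its values were seen. In that list 2 rose and 1 fell with BA, against 27% of all genes called in either direction. In RT against control 6 rose and 4 fell, against 41.6% of all genes. In BA+RT against control 6 rose and 2 fell, against 47.6%. In BA+RT against RT 3 rose and 1 fell, against 10.8%. In BA+RT against BA 6 rose and 2 fell, against 53.5%. Cdkn1a, the p53 target that encodes the Cdk inhibitor p21, rose by 1.39 in RT against control (SE 0.19, adjusted p = 3.5e-07). Myc, a driver of growth, rose with BA (0.34, adjusted p = 8.73e-05) and with RT (0.51, adjusted p = 4.72e-08), and its interaction was -0.37 (adjusted p = 0.0063).

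Of 13 checkpoint sensor genes, 1 rose and 1 fell with BA and 2 rose and 1 fell with RT. Over all genes 27% were called in either direction with BA and 41.6% with RT. Atm, the kinase that senses double-strand breaks, rose by 0.26 in RT (SE 0.09, adjusted p = 0.0151) and by 0.52 in BA+RT against control (adjusted p = 1.01e-05), whereas Atr, the kinase of stalled forks, fell by 0.29 in RT (log2 fold change -0.29, SE 0.06, adjusted p = 3.67e-04). In BA+RT against BA 4 rose and 2 fell, and in BA+RT against RT and in the interaction 0 were called. The shares of all genes called higher and lower were 27.1% and 26.4%, 3.66% and 7.13%, and 3.37% and 4.91%, in that order. On the reference scale 8 of these sensors rose and 0 fell in RT against control, and 0 rose and 4 fell in BA against control. Over all genes that scale called 40.7% higher and 7.61% lower in RT, and 9.54% higher and 17.6% lower in BA. Pcna counts in both the replication and the control list.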

How the data were processed

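Tumour RNA from 36 mice was read with 2 amplicon panels (72 libraries). Per the file headers and values, the authors deposited whole-number counts per gene amplicon, not normalized. No source used here says if the unit counted was a read or a molecular barcode. The other deposited table, of log2 values, came from the regularized log (rlog) of DESeq2, named without a version in the submitters' processing notes, and it served 1 alternative. Position columns are headed GRCh38, but the amplicons lie inside the named mouse genes on GRCm38. The 5 genomic DNA control rows per panel (7 and 12 counts in all) were left out.

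From the counts, each panel was filtered (filterByExpr), TMM-scaled and fitted over all 4 groups with edgeR 4.0.16 (glmQLFit robust, glmQLFTest, two-sided, R 4.3.3), with Benjamini-Hochberg adjustment over 1038 genes. A gene on both panels was taken from the panel with its larger total. SE is the absolute log2 fold change over the square root of F. Log2 CPM for correlations used a prior count of 2, and their p-values were adjusted over 1037 genes. The fit was checked on simulated counts for RT against control. It recovered 23 of 50 changes of 1.25-fold, 39 of 50 of 1.5-fold and 49 of 50 of 2-fold, with 5 false calls among 164. Differences of the size common in this set could thus be missed. Alternatives were reference gene factors, total counts, no filter, 2-group fits, DESeq2 1.42.0, limma 3.58.1 on rlog values, the other amplicon of Cdc25c, and mice left out.

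The genes and lists were chosen with earlier results of these data known. Mki67 and, per comparison, up to 4 called genes with the largest change are given in full. Libraries of a group are separate mice.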

Additional observations from a re-analysis of the deposited data

Results flagged for a closer look

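The response to BA differed between irradiated and unirradiated tumours, by the interaction test, for 3 genes: Hells (log2 difference 0.61, adjusted p = 0.00328 with edgeR), Cdc25c (0.45, adjusted p = 0.00831) and Mki67 (0.36, adjusted p = 0.0459). Over all genes tested, 8.29% had a called interaction. Reference gene scaling gave an adjusted p of 0.059 for Cdc25c and 0.146 for Mki67, and the Mki67 call was lost without any 1 of 22 of the 36 mice. In each the 2 compared effects were a fall with BA in unirradiated tumours and a value near 0 in irradiated ones.

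A mouse far from the others of its group was found in 2 of 64 gene and group combinations, where chance gives about 1 in 20. Mki67 in BA+RT mouse 41 was 2134 CPM, with the next highest mouse, 43, at 1804, a gap of 0.559 of the group's range against a critical value of 0.493 for 9 samples. Mcm3ap in control mouse 7 was 350 CPM, with the next highest, mouse 2, at 305, a gap of 0.523 of the range.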

How the results depend on the processing

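Reference gene scaling changed most. It turned Cdc5l in RT against control to a log2 fold change of 0.0774, and moved the number of genes called to 1 in BA+RT against RT, to 11 in BA+RT against BA and to 1 in the interaction. In BA+RT against control 1 gene was called with total counts alone, with no filter on low counts and with only the 2 groups in the fit. Leaving out 1 mouse in turn gave 4 to 7 calls in RT against control, 3 to 5 in BA against control, 0 to 5 in BA+RT against control, 0 in BA+RT against RT, 6 to 9 in BA+RT against BA and 2 to 4 in the interaction, with 0 directions of a called value reversed. Without control mouse 8 and BA+RT mouse 40 together, which had the lowest Mki67 of their groups, the counts were 6, 4, 3, 0, 9 and 3 in that order. The cause of these shifts was not tested. The fit with only the compared groups cannot be made for the interaction. No paired analysis was possible because the groups share no mouse numbers. Cdk5r1 had the fewest counts, 26 to 128 per library.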
